A study of Mus musculus with 32 samples.

Results

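The 8 genes Grm6, Trpm1, Gpr179, Nyx, Vsx1, Isl1, Cabp5 and Lrit3 are listed here as genes of the ON bipolar cell of the retina. This cell is the interneuron that depolarizes when light falls on the photoreceptors it contacts. Vsx1 and Cabp5 are not confined to ON cells among bipolar cells. The 8 genes were chosen by symbol, and their Ensembl identifiers were looked up in the gene counts of mouse hindbrain tumors of 2 transgenic models. Of the 8 genes, 7 had a row among the 37310 genes counted, and 6 of these were among the 21024 genes tested. Lrit3 had no row and was not analysed here. In both models the Glt1 promoter, that of an astroglial glutamate transporter, drives the tetracycline transactivator tTA, which in turn switches on an oncogene behind the tetracycline-responsive element TRE (a Tet-OFF system, silenced by doxycycline). GMYC mice (Glt1-tTA/TRE-MYC) express MYC in this way, and GTML mice express MYCN from the same promoter. Both were kept on the FVB/N strain, and the labels name no other allele or treatment for the tumors used here and give neither the age nor the sex of the mice. The RNA came from fresh-frozen biopsies of 6 GMYC and 8 GTML tumors, and nothing in the labels says whether 2 biopsies could share a mouse. The comparison asks how far MYC-driven and MYCN-driven medulloblastoma-like tumors differ in genes of a retinal interneuron.

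Photoreceptors release glutamate in darkness. On the dendrites of an ON bipolar cell this glutamate binds the metabotropic receptor mGluR6, the product of Grm6, and the G protein Go then keeps the cation channel TRPM1 closed. In light the glutamate falls, TRPM1 opens and the cell depolarizes. Gpr179 encodes the orphan receptor that holds the RGS proteins, which end the Go signal, at the dendrite tip. Nyx and Lrit3 encode leucine-rich repeat proteins needed for TRPM1 to reach the synapse, and loss of Grm6, Trpm1, Gpr179, Nyx or Lrit3 causes congenital stationary night blindness. Isl1 and Vsx1 encode homeodomain transcription factors of bipolar cells, and Cabp5 a calmodulin-like calcium-binding protein of rod bipolar cells and some cone bipolar cells. Medulloblastomas of Group 3 are known for expressing photoreceptor genes, which Otx2, Crx and Nrl control in the retina.

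The promoters below are those of the members whose levels the results turn on, read from RefSeq on the GRCm38.p6 build as the 250 bases before the annotated start, on the strand of the gene. They were searched on both strands for TAATCC (reverse complement GGATTA), the site preferred by OTX2 and CRX, for TAATTA, a general homeodomain site, and for CACGTG, the E-box bound by MYC, MITF and related factors. Capitals mark the matches, no 2 of which overlap. Trpm1 has a window at each of 2 annotated starts. The windows lie at chr11:50850435-50850684 (Grm6, plus strand), chr7:64153585-64153834 and chr7:64185209-64185458 (Trpm1, plus strand), chr11:97352357-97352606 (Gpr179, minus strand), chr13:116309689-116309938 (Isl1, minus strand) and chr7:13397905-13398154 (Cabp5, plus strand).
Grm6: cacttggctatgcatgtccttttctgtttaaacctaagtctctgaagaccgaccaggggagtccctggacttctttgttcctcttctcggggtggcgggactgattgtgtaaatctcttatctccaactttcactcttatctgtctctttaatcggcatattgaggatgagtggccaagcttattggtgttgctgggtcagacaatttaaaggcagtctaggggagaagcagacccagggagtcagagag
Trpm1, window 1: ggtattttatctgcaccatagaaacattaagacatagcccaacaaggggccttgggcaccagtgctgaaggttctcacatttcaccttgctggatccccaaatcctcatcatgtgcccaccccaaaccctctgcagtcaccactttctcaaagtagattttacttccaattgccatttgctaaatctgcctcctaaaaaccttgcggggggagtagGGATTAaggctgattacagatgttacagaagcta
Trpm1, window 2: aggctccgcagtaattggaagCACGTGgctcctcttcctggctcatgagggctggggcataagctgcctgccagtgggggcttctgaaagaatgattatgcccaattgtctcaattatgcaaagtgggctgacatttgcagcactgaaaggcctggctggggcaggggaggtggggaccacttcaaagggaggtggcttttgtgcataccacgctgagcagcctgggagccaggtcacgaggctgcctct
Gpr179: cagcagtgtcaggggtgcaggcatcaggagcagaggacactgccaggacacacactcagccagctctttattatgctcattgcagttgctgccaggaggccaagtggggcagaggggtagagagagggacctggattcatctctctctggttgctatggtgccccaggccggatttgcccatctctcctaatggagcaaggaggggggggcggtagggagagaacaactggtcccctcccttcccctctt
Isl1: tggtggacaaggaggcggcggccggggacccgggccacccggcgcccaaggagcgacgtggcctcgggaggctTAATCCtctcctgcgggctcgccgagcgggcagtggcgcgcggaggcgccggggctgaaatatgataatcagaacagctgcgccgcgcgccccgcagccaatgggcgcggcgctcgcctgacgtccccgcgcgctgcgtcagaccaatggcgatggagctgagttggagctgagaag
Cabp5: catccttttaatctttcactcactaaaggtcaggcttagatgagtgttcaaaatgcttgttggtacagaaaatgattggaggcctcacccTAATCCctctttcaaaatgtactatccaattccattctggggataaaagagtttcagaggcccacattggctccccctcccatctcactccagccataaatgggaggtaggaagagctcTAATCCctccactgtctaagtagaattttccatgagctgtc

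The OTX2 and CRX site stood in the windows of Trpm1, Isl1 and Cabp5. In Trpm1 the reverse form lay 34 bases before the first start, in Isl1 the site lay 177 bases before the start, and Cabp5 held 2 copies, 160 and 41 bases before its start. Among all 32851 promoter windows of this length, 6.25% held this site. The E-box stood once, 229 bases before the second start of Trpm1, and was in 6.02% of all windows. The general homeodomain site, held by 4.84% of all windows, was in no member's window. The windows of Grm6, Gpr179, Nyx, Vsx1 and Lrit3 held none of the 3 motifs, which says only that these letters are not in these 250 bases.

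Total counts per tumor ranged from 6218378 to 7279811 in the GMYC tumors and from 4602294 to 6317404 in the GTML tumors. The levels below are CPM, the reads of a gene scaled to a fixed library total after correction by edgeR's TMM factors, and log2 fold changes are GTML over GMYC, with a median of 0.04 over all genes tested. Myc and Mycn followed the labels of the models. Myc stood at 33.3 to 165 CPM in GMYC and 2.59 to 8.66 CPM in GTML tumors, and Mycn at 7.63 to 34.3 CPM in GMYC and 119 to 191 CPM in GTML tumors. Some tumors stood apart in ways that touch the values that follow. GTML tumor 2 had the lowest summed level of 19 photoreceptor markers, 514 CPM, and GTML tumor 3 the highest, 2940 CPM, against 1190 to 1390 CPM in the other 6 GTML tumors and 794 to 1060 CPM in the GMYC tumors. Small nucleolar RNAs took 0.366% to 0.438% of the counts in GMYC tumors 1 to 4 and GTML tumors 1 and 2, and 0.151% to 0.272% in the other 8 tumors. The labels do not name this difference between libraries. It follows the order in which the samples are listed, the tumors with the higher share coming first. Both models are on each side, but unevenly, so the share and the model cannot be told apart fully. Y-linked genes had 2131 to 3452 counts in the GMYC tumors and 1165 to 2270 in GTML tumors 1, 4, 6 and 7. In GTML tumors 2, 3, 5 and 8 they had 15 to 24 counts, so the models were not balanced in this respect. Nyx is on the X chromosome. The tumors are bulk samples, in which fewer cells of a type and less RNA per cell cannot be told apart.

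Grm6 and Trpm1, the receptor and the channel at the 2 ends of the ON bipolar cascade, were higher in GTML tumors, and both were near the floor of detection in GMYC tumors. They were the only 2 of the 6 tested members past the thresholds (adjusted p below 0.01, log2 fold change over 1 in size) in edgeR's quasi-likelihood test. Over all genes tested, 2.11% (444 genes) passed in this direction and 1.1% (232 genes) in the other, 3.22% in all. With limma-voom neither gene passed (adjusted p = 0.0264 for Grm6 and 0.0231 for Trpm1), and with DESeq2 both passed together with Gpr179. Without GTML tumor 2 in edgeR's test these 3 genes passed, among 1038 genes higher and 586 lower. No member passed in the other direction, where 1 member (Isl1) had an unadjusted p under 0.05 and DESeq2 called 1 and limma-voom 0. At an adjusted p under 0.05 alone, 3 members were higher in GTML (Grm6, Trpm1 and Gpr179), against 11.5% of all genes, and 1 was lower (Isl1), against 9.71%. At an unadjusted p under 0.05, a level used below for the gene lists, 20.4% of all genes were higher and 17.4% lower, which is the share to read the counts of each list against. Of the 21024 genes tested, DESeq2 called 1312 higher and 579 lower, and limma-voom 418 and 430. The calls of these 2 tools in each list are to be read against those totals. Grm6 and Trpm1 entered the test only because 6 GTML tumors each were above 1 CPM, whereas no GMYC tumor was, so a filter of this kind favors a difference and the count over the tested members is a description. In none of the 7 members did the models separate fully, which 2.14% of all genes did with every GTML tumor above every GMYC tumor and 2.48% the other way round.

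**Figure D1:**
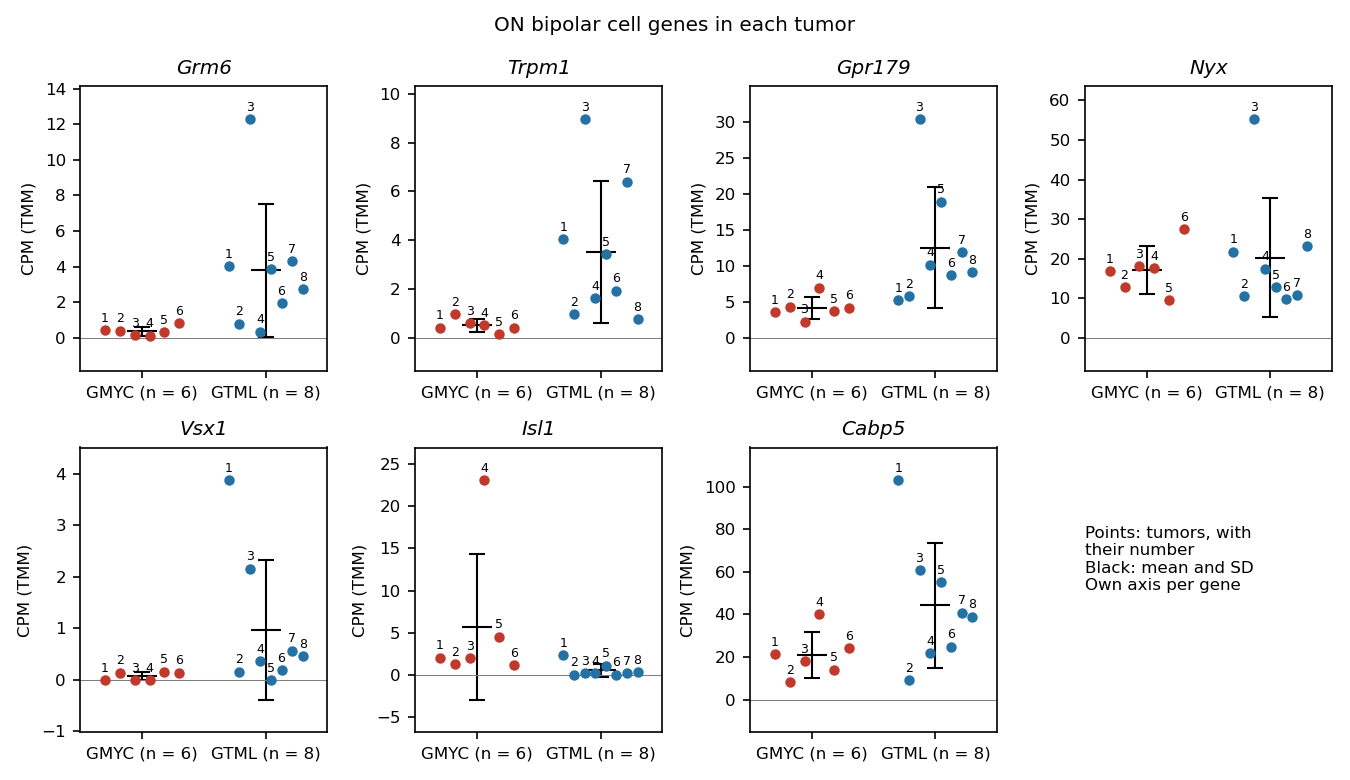
Level of each member in CPM (TMM-scaled) in the 6 GMYC tumors (red) and the 8 GTML tumors (blue), 1 panel and 1 linear axis per gene. Points are single tumors with their number, and black lines are the mean and SD. GTML tumor 3 is the highest point in 4 panels, Cabp5 and Vsx1 peak in GTML tumor 1, and Isl1 peaks in GMYC tumor 4.

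Grm6 (ENSMUSG00000000617) had 1 to 6 reads per GMYC tumor. Its levels in GMYC tumors 1 to 6 were 0.43, 0.421, 0.153, 0.135, 0.321 and 0.847 CPM. In GTML tumors 1 to 8 they were 4.05, 0.812, 12.3, 0.364, 3.87, 1.94, 4.33 and 2.75 CPM. GTML tumors 2 and 4 lay within the GMYC range, the other 6 lay above all GMYC tumors, and tumor 3 stood apart from the rest. The means were 0.384 ± 0.26 CPM in GMYC (SD, n = 6) and 3.8 ± 3.74 CPM in GTML tumors (SD, n = 8), a log2 fold change of 3.24 (SE 0.696, adjusted p = 0.00792). Without GTML tumor 3 the log2 fold change was 2.68 and the adjusted p 0.0107. When each of the 14 tumors was left out in turn, the adjusted p ran from 0.00324 to 0.0232 and stayed under 0.01 only without GTML tumor 1, 2 or 4.

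Trpm1 (ENSMUSG00000030523), whose product is also known as melastatin from melanocytes, had 1 to 7 reads per GMYC tumor. Its levels were 0.43, 0.983, 0.611, 0.538, 0.161 and 0.423 CPM in GMYC tumors 1 to 6. They were 4.05, 0.974, 8.97, 1.64, 3.44, 1.94, 6.4 and 0.763 CPM in GTML tumors 1 to 8. GTML tumors 2 and 8 fell within the GMYC range and the other 6 lay above it, tumors 3 and 7 the highest. The means were 0.524 ± 0.272 CPM in GMYC (SD, n = 6) and 3.52 ± 2.89 CPM in GTML tumors (SD, n = 8), with a log2 fold change of 2.69 (SE 0.593, adjusted p = 0.00861). Without GTML tumor 3 these were 2.33 and 0.0132. Leaving out 1 tumor at a time gave an adjusted p of 0.00356 to 0.0228, under 0.01 without GMYC tumor 2 or GTML tumor 2, 4 or 8 and above it without any of the other 10. The microRNA gene Mir211, which sits in an intron of Trpm1, had 0 reads in every tumor. Gm12660, an antisense gene that overlaps an exon of Grm6, had 0 to 5 reads, and without a stated counting strand reads of the pair cannot be told apart.

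Pigment cells also use Trpm1, so their genes are given beside it. Of 11 melanocyte and pigment epithelium genes, 6 were tested, and the summed level of the 11 was 7 to 31.3 CPM in GMYC and 9.25 to 64.6 CPM in GTML tumors. Tyrp1, a melanosome protein of the melanin pathway, rose from 0.836 ± 0.447 CPM (SD, n = 6) to 7.13 ± 3.78 CPM (SD, n = 8), a log2 fold change of 3.07 (SE 0.426, adjusted p = 0.00134), and each GTML tumor was above each GMYC tumor. At an adjusted p under 0.05, 2 genes of the list were higher and 1 lower, while DESeq2 called 2 higher and 1 lower and limma-voom 1 higher. Rgr, an opsin-like protein of the pigment epithelium and Mueller glia, had 3.93 CPM in GMYC and 16.9 CPM in GTML tumors (log2 fold change 2.09, adjusted p = 0.0402). Mlana, a melanosome protein defining melanocytes, had the opposite sign, at 1.36 CPM in GMYC and 0.221 CPM in GTML tumors (log2 fold change -2.52, adjusted p = 0.0132), and Tyr, Slc45a2, Oca2, Rpe65 and Lrat were too low to be tested. Dct, chosen after its values were seen, had 8.32 CPM in GMYC and 5.88 CPM in GTML tumors (log2 fold change -0.5, adjusted p = 0.67). Of the 6 tested genes, 4 had a positive and 2 a negative log2 fold change. In GTML tumor 4, which had the highest sum (64.6 CPM), Rgr gave 34.8 CPM and Dct 21.5 CPM. The part of pigment cells in the Trpm1 difference was not tested.

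Gpr179 (ENSMUSG00000070337) was detected in all tumors of both models, with 15 to 183 reads per tumor. It had 3.58, 4.35, 2.29, 7, 3.7 and 4.23 CPM in GMYC tumors 1 to 6. It had 5.28, 5.84, 30.4, 10.2, 18.9, 8.71, 11.9 and 9.15 CPM in GTML tumors 1 to 8. GTML tumors 1 and 2 lay below the highest GMYC tumor, number 4, and the other 6 GTML tumors lay above all GMYC tumors. The log2 fold change between the means of 4.19 ± 1.56 CPM (SD, n = 6) and 12.5 ± 8.36 CPM (SD, n = 8) was 1.57 (SE 0.401, adjusted p = 0.0149), past the 0.05 but not the 0.01 level. Without GTML tumor 3 it was 1.25 (adjusted p = 0.0223). Gpr179 passed 0.01 without GTML tumor 1 (0.00972) or GTML tumor 2 (0.00692).

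Nyx (ENSMUSG00000051228), the nyctalopin gene, showed no detectable difference between the models. Its levels in GMYC tumors 1 to 6 were 16.8, 12.8, 18.2, 17.6, 9.64 and 27.5 CPM. In GTML tumors 1 to 8 they were 21.8, 10.6, 55.3, 17.5, 12.9, 9.88, 10.9 and 23.2 CPM. Apart from tumor 3, every GTML tumor lay within the GMYC range, and the medians were 17.2 CPM in GMYC and 15.2 CPM in GTML tumors. The means, 17.1 ± 6.07 CPM (SD, n = 6) and 20.3 ± 15.1 CPM (SD, n = 8), gave a log2 fold change of 0.25 (SE 0.38, adjusted p = 0.657), which was -0.16 without GTML tumor 3. The direction of the Nyx fold change thus rested on that tumor.

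Cabp5 (ENSMUSG00000005649) had the highest level of the members, and the groups overlapped widely. Its levels were 21.2, 8.29, 18, 40, 14 and 24.3 CPM in GMYC tumors 1 to 6. They were 103, 9.09, 60.9, 21.8, 55.3, 24.8, 40.9 and 38.9 CPM in GTML tumors 1 to 8. GTML tumors 1, 3, 5 and 7 lay above all GMYC tumors, and GTML tumor 2 lay near the lowest of them. The means were 21 ± 10.9 CPM (SD, n = 6) and 44.3 ± 29.2 CPM (SD, n = 8), and the log2 fold change was 1.08 (SE 0.447, adjusted p = 0.0908), which did not pass. Leaving out 1 tumor at a time moved it from 0.78 (without GTML tumor 1) to 1.37 (without GMYC tumor 4), with an adjusted p of 0.0257 to 0.169.

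Of the transcription factor genes, Isl1 had lower levels in GTML tumors without passing the 0.01 level, and Vsx1 had almost no reads in GMYC tumors. Isl1 (ENSMUSG00000042258) stood at 2.01, 1.26, 1.98, 23.1, 4.5 and 1.13 CPM in GMYC tumors 1 to 6. In GTML tumors 1 to 8 it stood at 2.29, 0, 0.166, 0.182, 1.08, 0, 0.188 and 0.305 CPM, with no read in tumors 2 and 6 and 1 to 13 reads in the others. GMYC tumor 4, with 172 reads, was far above the rest, and GTML tumor 1 was above 4 of the 6 GMYC tumors. The means were 5.67 ± 8.64 CPM in GMYC (SD, n = 6) and 0.53 ± 0.79 CPM in GTML tumors (SD, n = 8), with medians of 2 and 0.185 CPM. The log2 fold change was -3.4 (SE 0.889, adjusted p = 0.0165), under 0.05 but not 0.01. It was -2.02 without GMYC tumor 4 (adjusted p = 0.0671) and -4.34 without GTML tumor 1 (adjusted p = 0.0071).

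Isl1 is also a gene of motor and sensory neurons, so genes of these cells are given beside it. Of 9 such genes 5 were tested, and none passed the thresholds, although 2 were lower in GTML tumors at an adjusted and an unadjusted p under 0.05 and DESeq2 called 1 of them lower and limma-voom 0. Mnx1, a motor neuron homeobox gene, had a mean of 36.8 CPM in GMYC and 2.75 CPM in GTML tumors (log2 fold change -3.72, adjusted p = 0.0155), and Isl2, the paralog of Isl1, 84.6 and 42.9 CPM (log2 fold change -0.98, adjusted p = 0.0278). Pou4f1, which encodes a POU factor of ganglion cells and of sensory neurons, fell from a mean of 47.2 to 2.26 CPM (log2 fold change -4.37, adjusted p = 0.00279). GMYC tumor 2 was an exception, with 0.421 CPM of Pou4f1, under the lowest GTML tumor (0.528 CPM). The other GMYC tumors had 44.2 to 68.3 CPM. For Mnx1, GMYC tumor 2 had 0.843 CPM, against 26.8 to 78.7 CPM in the other GMYC tumors. GMYC tumor 4, the highest for Isl1, had 60.4 CPM of Pou4f1 and 38.7 CPM of Mnx1, both within the range of the other GMYC tumors, but the highest Avil, 17.8 CPM, and the highest Chat, 4.17 CPM against 0 in the other 5 GMYC tumors. Chat, the acetylcholine-synthesizing enzyme of motor neurons and starburst amacrine cells, was looked at after these values had been seen. The summed level of the list was 114 to 214 CPM in GMYC and 58.9 to 92.5 CPM in GTML tumors, and the part of such neurons in the Isl1 difference was not tested.

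Vsx1 (ENSMUSG00000033080) had 0 to 1 read in each GMYC tumor, that is 0, 0.14, 0, 0, 0.161 and 0.141 CPM. GTML tumors 1 to 8 had 3.87, 0.162, 2.16, 0.364, 0, 0.194, 0.565 and 0.458 CPM. Only GTML tumors 1 and 3, with 22 and 13 reads, were above 1 CPM, so the gene did not enter the test, and the remaining GTML tumors had 0 to 3 reads. In a fit without the low-count filter the log2 fold change was 3.42 (SE 0.98, adjusted p = 0.0328), a value that depends on the prior count at such low levels.

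**Figure D2:**
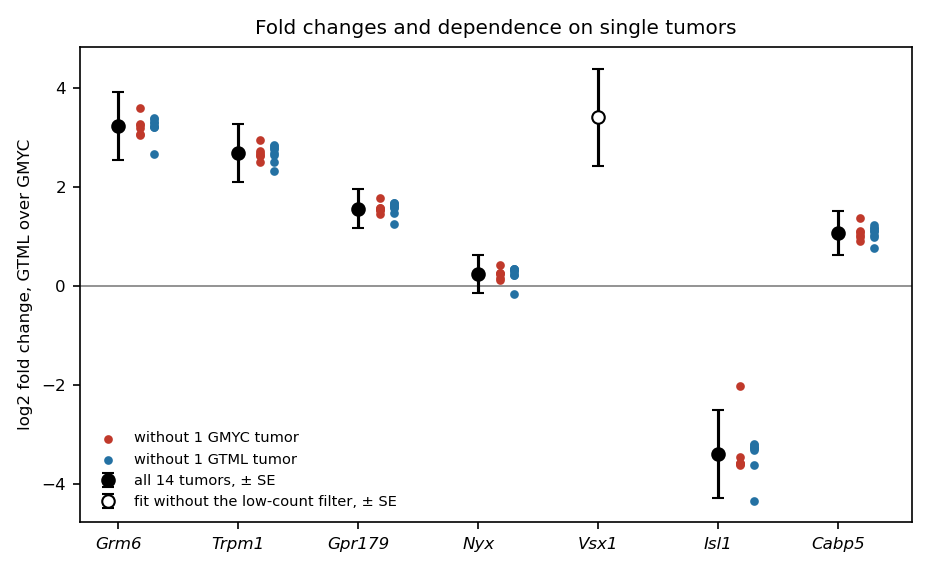
Log2 fold change (GTML over GMYC) of each member, with bars of 1 SE, in the fit of all 14 tumors (filled black) or, for Vsx1, in the fit without the low-count filter (open). Red and blue points leave out 1 GMYC or 1 GTML tumor at a time, and the lowest blue points of Grm6, Trpm1, Gpr179 and Nyx are those without GTML tumor 3.

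Per kilobase of annotated exon, the members spread over more than 2 orders of magnitude within a model, and levels between genes are compared on this scale only. In GMYC tumors the mean was 8.29 CPM per kb for Cabp5, 3.3 for Nyx, 1.43 for Isl1, 0.439 for Gpr179, 0.0709 for Grm6, 0.0356 for Trpm1 and 0.0194 for Vsx1. In GTML tumors it was 17.5 CPM per kb for Cabp5, 3.91 for Nyx, 1.31 for Gpr179, 0.701 for Grm6, 0.256 for Vsx1, 0.239 for Trpm1 and 0.133 for Isl1. Cabp5 was above Nyx in 6 of 6 GMYC and 8 of 8 GTML tumors, and Gpr179 was above Grm6 in 6 of 6 and 7 of 8. Of all neighbors in either order, the ranges were separate for Gpr179 and Grm6 in GMYC tumors and overlapped for the rest. Grm6 and Trpm1 changed places in 2 of 6 GMYC tumors, and Vsx1 was above Trpm1 in 2 of 8 GTML tumors although its mean was higher, so these neighbors did not differ beyond their spread. The calcium-binding protein gene and the nyctalopin gene thus led in both models, with the receptor and the channel far below them.

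**Figure D3:**
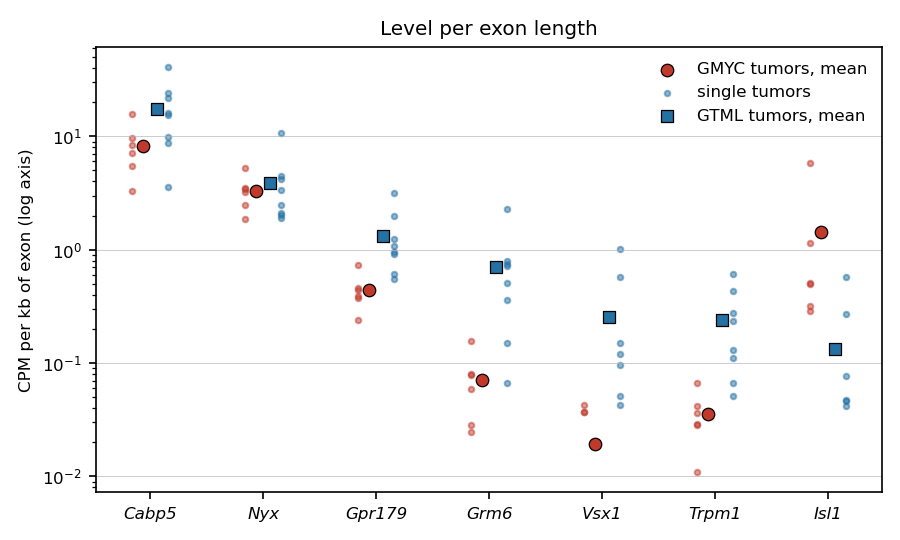
CPM per kb of annotated exon (log axis) for the 7 members with a row, in order of the GTML mean. Outlined symbols are means of the 6 GMYC tumors (red circles) and 8 GTML tumors (blue squares) and small points are single tumors, of which those at 0 (Vsx1 in 4 tumors, Isl1 in 2) cannot be drawn. The order runs from Cabp5 to Isl1 in GTML tumors, while only Cabp5 and Nyx are above Isl1 in GMYC tumors.

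GTML tumor 3 was the highest of the 14 tumors for 4 of the 7 members, Grm6, Trpm1, Gpr179 and Nyx, which 11.4% of all genes tested were. It was also the highest for the summed photoreceptor markers given above. GTML tumor 1 was the highest for Cabp5 and Vsx1, and GMYC tumor 4 for Isl1. Across the 14 tumors, Spearman's rho of the log2 levels was 0.74 between Grm6 and Trpm1, 0.75 between Trpm1 and Gpr179 and 0.62 between Grm6 and Gpr179. Nyx had a rho of 0.23, 0.08 and 0.1 with these 3 genes. Isl1 had -0.49, -0.54 and -0.59 with them. The values describe 14 tumors of 2 models, so a difference between models enters each of them, and so does a shared library.

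**Figure D4:**
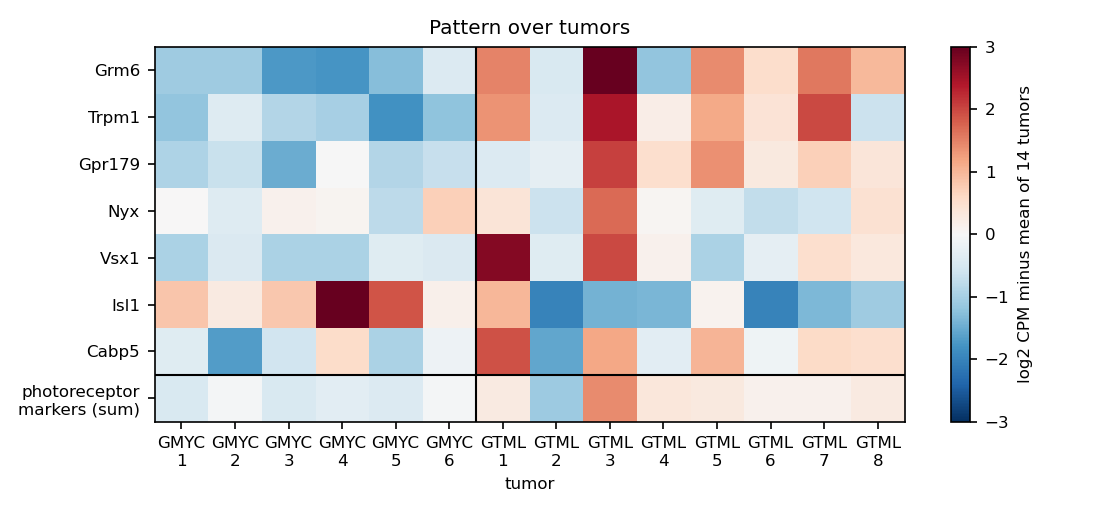
Log2 CPM (prior count 2) of each member in each tumor minus its mean over the 14 tumors, with the summed photoreceptor markers in the bottom row. Red is above and blue below the mean, and values past 3 have the end color. GTML tumor 3 is red in every row but Isl1, and GTML tumor 2 is blue in all rows.

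The genes whose pattern over the 14 tumors was most like that of a member were named by the highest Spearman's rho of log2 CPM among the genes tested. For Grm6 they were Spata9 (0.943), Cdc42bpa (0.925) and Plekhm3 (0.916). For Trpm1 they were Pax7 and Gm15319 (both 0.947) and Sall2 (0.943), and for Gpr179 they were 9530034E10Rik (0.956), Capns2 (0.952) and Osbpl7 (0.947). For Nyx the highest values were lower, 0.877 for Clic3, 0.855 for Gm14506 and 0.846 for Hagh. For Isl1 they were 0.88 for Zfp747, 0.869 for Map3k6 and 0.867 for Zfp580. Cabp5 was most like Foxj1 (0.952), Epn3 and Thra (both 0.93). No member was among the 3 genes most like another member, and since these are the highest of many coefficients over 14 points, they are descriptions only.

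The partners of the mGluR6 cascade had log2 fold changes of either sign, 8 above and 5 below 0. Of 13 genes for the G protein, its regulators and related proteins, all were tested and none passed the thresholds in either direction, with 3 higher and 2 lower at an unadjusted p under 0.05 (20.4% and 17.4% of all genes), 1 called higher by DESeq2 and 0 by limma-voom. Their median log2 fold change was 0.29, against 0.04 over all genes. Gnao1, the alpha subunit of Go, had 68 ± 26.4 CPM in GMYC (SD, n = 6) and 105 ± 34.8 CPM in GTML tumors (SD, n = 8), with a log2 fold change of 0.63 (adjusted p = 0.0771). Gnb3, the beta subunit that ON bipolar cells share with cones, had 196 ± 32 and 213 ± 85.5 CPM (log2 fold change 0.12, adjusted p = 0.771). Gng13, the gamma subunit, was near the floor, at 1.22 CPM in GMYC and 0.386 CPM in GTML tumors (log2 fold change -1.63, adjusted p = 0.066).

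The regulators that GPR179 holds had log2 fold changes of 0.3 for Rgs7 (adjusted p = 0.396), 0.29 for Rgs11 (0.605) and 0.39 for their partner Gnb5 (0.225). Prkca, the protein kinase C of rod bipolar cells, had 0.54 (0.26). Lrit1 and Lrit2, relatives of Lrit3, were the highest of the list by fold, which was seen before they were chosen here. Lrit1, a photoreceptor synapse protein, had 34.9 ± 23.7 CPM in GMYC (SD, n = 6) and 109 ± 87.1 CPM in GTML tumors (SD, n = 8), 313 of it in GTML tumor 3, with a log2 fold change of 1.64 (SE 0.51, adjusted p = 0.0337). Lrit2 had 12.9 ± 11.9 and 38.7 ± 24 CPM, with a log2 fold change of 1.58 (SE 0.56, adjusted p = 0.0549).

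Bipolar transcription factors were mixed. Of 11 genes, 9 were tested and none passed the thresholds, with 3 higher and 1 lower at an unadjusted p under 0.05, and 1 called higher by DESeq2 and 1 lower by limma-voom. Otx2, the homeobox gene shared by photoreceptors and bipolar cells, was at 315 ± 35 CPM in GMYC (SD, n = 6) and 322 ± 48.6 CPM in GTML tumors (SD, n = 8), a log2 fold change of 0.03 (adjusted p = 0.849). Neurod4, a bHLH gene of bipolar cell genesis, had 240 ± 64.8 and 173 ± 93.9 CPM (log2 fold change -0.48, adjusted p = 0.298). Bhlhe23, a bHLH gene of rod bipolar cells, had no read in 8 tumors and at most 1.32 CPM, whereas Prkca and Cabp5, also genes of these cells, had reads in all 14. Among the genes chosen here after their values were seen, Irx6, a gene of OFF cone bipolar cells, had 1.87 ± 0.886 CPM in GMYC (SD, n = 6) and 11.1 ± 10.5 CPM in GTML tumors (SD, n = 8), a log2 fold change of 2.55 (adjusted p = 0.0148). Lhx3, chosen in the same way, went the other way from a higher level. It had 125 ± 19.9 CPM in GMYC and 57.1 ± 49.6 CPM in GTML tumors, 178 CPM in GTML tumor 4 (log2 fold change -1.14, adjusted p = 0.0328).

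OFF bipolar cells, the complement of the ON cells, showed no common direction. All 8 genes listed were tested and none passed, with 1 higher and 1 lower at an unadjusted p under 0.05, 1 called higher by DESeq2 and 0 by limma-voom, and a median log2 fold change of -0.03. The synaptotagmin gene Syt2 had 104 CPM in GMYC and 116 CPM in GTML tumors (log2 fold change 0.16, adjusted p = 0.731), and Prkar2b, a protein kinase A subunit, had 74.9 and 62.3 CPM (log2 fold change -0.26, adjusted p = 0.472). The neurokinin receptor gene Tacr3, chosen after its values were seen, had 0.336 CPM in GMYC and 3.92 CPM in GTML tumors (log2 fold change 3.46, adjusted p = 0.0123). Hcn4, chosen in the same way, had the opposite sign, with 12.3 CPM in GMYC and 4.52 CPM in GTML tumors (log2 fold change -1.45, adjusted p = 0.0979).

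On the other side of the synapse, in the photoreceptor terminal, 3 of 11 genes tested rose in GTML tumors past the thresholds, as 2.11% of all genes did, and none fell. DESeq2 also called 3 higher and 0 lower, while limma-voom called 1 higher and 1 lower, and at an unadjusted p under 0.05 the counts were 3 and 1. Cacna1f, the pore of the calcium channel at the photoreceptor ribbon, had 20.2 ± 11.1 CPM in GMYC (SD, n = 6) and 106 ± 61.9 CPM in GTML tumors (SD, n = 8), with a log2 fold change of 2.39 (SE 0.482, adjusted p = 0.00639). Its accessory subunit Cacna2d4 had 17.8 ± 9.29 and 101 ± 69.9 CPM, with a log2 fold change of 2.49 (SE 0.552, adjusted p = 0.00878). Elfn2, a cell adhesion protein of cone terminals, had 5.5 ± 4.07 and 28.1 ± 13 CPM, with a log2 fold change of 2.35 (SE 0.437, adjusted p = 0.00464). Egflam, the gene of pikachurin, which links the terminal to the bipolar dendrite, had 209 ± 60.3 CPM in GMYC and 76.4 ± 61.9 CPM in GTML tumors (log2 fold change -1.45, adjusted p = 0.0318). The other 7 genes had adjusted p-values of 0.159 or more, and the median log2 fold change of the list was 0.17.

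Photoreceptor markers are given because these cells are the main neighbors of bipolar cells. Of 19 tested, none passed the thresholds, while 14 were higher at an unadjusted p under 0.05, against 20.4% of all genes, and 10 at an adjusted p under 0.05, against 11.5%. DESeq2 called 8 and limma-voom 0. Their median log2 fold change was 1.74. Sag, the rod arrestin, had 66.2 ± 36.3 CPM in GMYC (SD, n = 6) and 221 ± 106 CPM in GTML tumors (SD, n = 8), a log2 fold change of 1.74 (adjusted p = 0.0127), while the transcription factor gene Crx had 384 ± 27.3 and 325 ± 96.6 CPM (log2 fold change -0.24, adjusted p = 0.424). Of 4 pineal genes 3 were tested, with 2 higher at an adjusted p under 0.05, Tph1 (log2 fold change 2.78, adjusted p = 0.0205) and Bsx (3.71, adjusted p = 0.0251), and DESeq2 called 1 and limma-voom 2. GMYC tumor 2 had 33.6 CPM of Tph1 and 7.86 CPM of Bsx, against at most 5.04 and 0.143 CPM in the other GMYC tumors. The summed pineal genes were at 1.75 to 43.5 CPM in GMYC and 10.4 to 113 CPM in GTML tumors. Their part in the Grm6 and Trpm1 differences was not tested.

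The other cell types a retina or a cerebellar biopsy could hold are given by their counts. Of 11 horizontal, amacrine and ganglion cell genes 7 were tested, and Pou4f1 alone passed, as given above. For Mueller glia (5 genes), astrocytes (5), microglia (5) and oligodendrocytes (6), none passed in edgeR's test, with 0, 1, 0 and 2 genes at an unadjusted p under 0.05, and DESeq2 and limma-voom each called 1 gene, of the oligodendrocytes. Of 7 cerebellar neuron genes tested none passed, 4 were lower at an unadjusted p under 0.05 and DESeq2 called 1 and limma-voom 0. These 4 were Cbln3 (log2 fold change -3.39, adjusted p = 0.035), Calb1 (-2.37, adjusted p = 0.0617), Car8 (-1.89, adjusted p = 0.0571) and Neurod1 (-0.23, adjusted p = 0.0426). GMYC tumor 1 had the highest Cbln3 (62.5 CPM), Calb1 (32.8 CPM) and Car8 (39.1 CPM) of the 14 tumors. Of the choroid plexus genes 2 were tested and none passed, with 1 at an unadjusted p under 0.05 and no call by DESeq2 or limma-voom. Of the blood genes 2 were tested, with opposite signs. Hba-a1, a globin gene, fell from 20.9 to 4.71 CPM (log2 fold change -2.14, adjusted p = 0.00399) and passed the thresholds. Alas2, chosen after its values were seen, had 35.4 CPM in GMYC and 50.7 CPM in GTML tumors (log2 fold change 0.51, adjusted p = 0.276). The summed blood genes were at 27.8 to 79 CPM in GMYC and 30.9 to 125 CPM in GTML tumors.

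Because the small nucleolar RNA share differed across the libraries of both models, the members were compared on either side of it. Among the 6 tumors with the higher share, GMYC tumors 1 to 4 and GTML tumors 1 and 2, the log2 fold change was 0.38 for Gpr179 (adjusted p = 0.762), 0 for Nyx, -2.61 for Isl1 (adjusted p = 0.545) and 1.37 for Cabp5 (adjusted p = 0.535). Grm6 and Trpm1 did not enter the test there. The filter asks for more than 1 CPM in 3 tumors, and only GTML tumor 1 had it (4.05 CPM of each gene). With 2 GTML tumors on this side, a gene above 1 CPM in GTML tumors alone could not enter. Among the 8 with the lower share, GMYC tumors 5 and 6 and GTML tumors 3 to 8, it was 2.78 for Grm6 (adjusted p = 0.111), 3.58 for Trpm1 (adjusted p = 0.0558), 1.88 for Gpr179 (adjusted p = 0.0533), 0.2 for Nyx, -3.11 for Isl1 (adjusted p = 0.0338) and 1.06 for Cabp5 (adjusted p = 0.11). With the share as a term in the fit of all 14 tumors, it was 2.9 for Grm6 (adjusted p = 0.0204), 2.67 for Trpm1 (adjusted p = 0.0243), 1.17 for Gpr179 (adjusted p = 0.0982) and -2.87 for Isl1 (adjusted p = 0.0473). Gpr179, Isl1 and Cabp5 had the same direction on both sides. Gpr179 had no adjusted p under 0.01 in these 3 fits, nor had Grm6 and Trpm1 in the 2 that tested them.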

How the data were processed

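Total RNA of 14 tumor biopsies (6 GMYC, 8 GTML) was sequenced on the Ion Torrent system. The paper's methods describe the sequencing of the GMYC tumors and name GTML tumors of an earlier study beside new ones. Which GTML tumors were new is not given in the sources used here. A difference between the models thus cannot be told apart from one in how the data were generated. The authors mapped reads on mm9, first with STAR and for the remainder with Bowtie, summed them by gene in featureCounts over GENCODE models, and deposited the raw counts without normalization. The submitters' processing notes list STAR 2.4.0, Bowtie2 2.2 and Subread 1.5.2. The handling of duplicate reads and of strand is not given in the sources used here. A further 18 columns of per-sample counts had names that match no sample label and were not used, so the levels in cell lines planned for these genes were not analysed.

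Genes were named through Ensembl identifiers from a GRCm38 annotation (32620 of 37310 genes, 87.4%), which also gave exon lengths as the union of annotated exons. All 8 members had a promoter window in RefSeq (9 windows). No coordinates are taken from the counts, since these were made on mm9. Models were compared by edgeR's quasi-likelihood test (edgeR 4.0.16, R 4.3.3) with TMM factors on the genes that exceeded 1 CPM in 3 or more tumors, with Benjamini-Hochberg adjustment over all of them. A gene was called at an adjusted p below 0.01 with a log2 fold change over 1 in size. The filter and these thresholds follow the methods of the study, which used limma-voom and left 1 GTML tumor, grouped with another medulloblastoma class, out of its comparison. The labels do not say which tumor this was, and all 8 are used here. DESeq2 1.42.0, limma-voom (limma 3.58.1), other filters and scalings, a replicate block, a term for the small nucleolar RNA share (split at 0.3%) and leaving out tumors were alternatives. The alternatives of only tumors with counts of Y-linked genes and of all tumors but GMYC tumor 4 and GTML tumor 3 were added after the data had been seen. The code was tested on simulated counts. Python 3.11.15 and matplotlib 3.10.9 drew the figures.

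The members and gene lists were chosen with earlier results of these data known. Genes were named as the 8 members, the genes of each list past the thresholds (at most 4) or else its 2 most abundant, and the 3 genes most like each tested member. Genes outside this rule were chosen after their values had been seen, namely those said to be so in the text and Gng13, Gnb5, Rgs7, Rgs11, Prkca, Lrit2, Bhlhe23, Egflam, Mlana, Rgr, Cbln3, Calb1, Car8 and Avil. The p-values measure the spread between biopsies of a model. No 2 tumors of a model agreed within counting noise (lowest chi-square per df 5.67). Depth sets the precision of the low genes, since 1 read was worth 0.135 CPM in GMYC tumor 4 and 0.215 CPM in GTML tumor 5. The values of 1 listed gene are not reported here.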

Additional observations from a re-analysis of the deposited data

Results flagged for a closer look

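Of 14 groups of values (7 members in each model), 4 had a tumor set apart from the rest of its group by Dixon's criterion on CPM. Chance meets this criterion in about 1 in 20 groups of normally distributed values. The CPM of low counts are skewed, so this share need not hold here and the 4 groups are descriptions. GTML tumor 3 stood apart for Grm6, with 12.3 CPM against 4.33 CPM in the next highest GTML tumor, and for Nyx, with 55.3 CPM against 23.2 CPM. For Isl1, GMYC tumor 4 stood apart with 23.1 CPM against 4.5 CPM in the next GMYC tumor, and GTML tumor 1 with 2.29 CPM against 1.08 CPM in the next GTML tumor. The members of 1 tumor share a library, so these are not independent.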

How the results depend on the processing

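The members' counts are low, and the 0.01 threshold was passed narrowly. Across 26 alternatives the log2 fold change ran from 2.51 to 3.78 for Grm6 (adjusted p 0.000121 to 0.111, past the thresholds in 8) and from 2.27 to 3.58 for Trpm1 (0.00027 to 0.068, past in 9). Across 27 it ran from 0.38 to 1.88 for Gpr179 (0.000865 to 0.762, past in 3), from -4.34 to -1.88 for Isl1 (0.00226 to 0.545, past in 2) and from 0.78 to 1.37 for Cabp5 (0.0257 to 0.535, past in 0). These 5 genes kept their direction throughout. Nyx, at 0.25, was at -0.16 without GTML tumor 3, -0.09 without GTML tumors 2 and 3, -0.18 among tumors with Y-linked counts, -0.15 without GMYC tumor 4 and GTML tumor 3, 0.00 on the high side of the small nucleolar RNA share, and up to 0.43 without GMYC tumor 6. The causes were not tested.

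The 444 genes higher and 232 lower in GTML became 1312 and 579 with DESeq2, 418 and 430 with limma-voom, 269 and 149 without the low-count filter, 2418 and 2041 at an adjusted p under 0.05 with no fold, 792 and 389 without GTML tumors 2 and 3, and 169 and 127 with the small nucleolar RNA term. They became 83 and 44 among tumors with the lower share, 120 and 44 among tumors with Y-linked counts, and 180 and 70 without GMYC tumor 4 and GTML tumor 3. Among tumors with the higher share edgeR called 0 higher (1355 at an unadjusted p under 0.05) and 2 lower. Leaving out 1 tumor gave 74 (without GMYC tumor 3) to 1038 (without GTML tumor 2) higher and 40 to 586 lower, with the same tumors at the ends. Of the members, 2 were called higher and 0 lower, which became 3 and 1 with DESeq2 and at an adjusted p under 0.05. The count higher was 0 with limma-voom (3 at an unadjusted p under 0.05), without the filter (5), with the small nucleolar RNA term (4), on the higher (0) or lower (4) side of that share, among tumors with Y-linked counts (4) and without GMYC tumor 4 and GTML tumor 3 (4). On the higher side of the share, Grm6 and Trpm1 did not enter the test. Leaving out 1 tumor gave 0 to 3 members higher and 0 to 1 lower.

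The replicate numbers do not pair the tumors, since the deviations of tumors with the same number correlated from -0.212 to 0.24 over 6 pairs and 1 GMYC and 1 GTML tumor correlated best with its own number. With the number as a replicate block, 7 genes were higher and 3 lower, 0 members were called (3 higher at an unadjusted p under 0.05), and the log2 fold change was 2.74 for Grm6 (adjusted p 0.0724) and 2.45 for Trpm1 (adjusted p 0.068).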
